A study of Mus musculus with 26 samples.

Results

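Prelp and the other small leucine-rich proteoglycans are secreted proteins of the extracellular matrix. The 10 genes described here are Prelp, Fmod, Optc, Dcn, Lum, Bgn, Omd, Ogn, Kera and Aspn. The family was chosen by measured values: Prelp was among the genes higher with the MYB constructs than with eGFP in these arrays, and the other 9 genes were added because they belong to the same family. A probe set was counted for a gene when its annotation named that gene alone, which gave 79 of 269751 probe sets and 10 of the 23152 genes measured.

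The samples were mouse neural stem cells of C57BL6 wild-type genotype, isolated at E14.5, and their total RNA was read on 26 Affymetrix arrays. Every sample had received a lentiviral transgene. The pool set held 3 arrays each of cells that over-expressed MYBtr, MYBQKI5, MYBQKI6 or QKItr, and 6 arrays of cells with eGFP, in pools numbered 1 to 3. MYB is a transcription factor, QKI binds RNA, and MYBQKI5 and MYBQKI6 are fusions of both. The labels do not spell out the ending "tr". The suppression set held 5 arrays of cells with MYBQKI6 and suppressed Qk, the mouse gene for QKI, and 3 arrays of cells with MYBQKI6 and suppressed LacZ. The constructs were carried by wild-type cells in culture, the labels name neither the promoter nor the way of suppression, and they do not say whether pools were separate animals, so the p-values speak only of the spread between the samples measured.

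Small leucine-rich proteoglycans share a core of leucine-rich repeats that binds collagen, and many carry chains of chondroitin, dermatan or keratan sulfate. They set the width and spacing of collagen fibrils, and several hold growth factors of the TGF-beta family in the matrix. Prelp protein binds collagen and heparan sulfate and is thought to tether basement membranes to the tissue beneath. Most members are textbook products of connective tissue, and in the embryonic brain they are best known from the meninges and vessels.

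Optc, Prelp and Fmod follow each other on chromosome 1 with no other protein-coding gene between them in the RefSeq annotation, and Aspn, Omd and Ogn lie side by side on chromosome 13, within the annotated span of Cenpp. The 250 bases before the annotated start of Prelp, of its flanking family members and of Ogn are shown because these genes lie side by side and their signals differed. They come from RefSeq (GRCm38.p6), run 5′ to 3′ toward the gene, and have in capitals each match to AACNG on either strand, the core that MYB proteins are known to bind, with any base at N. Prelp's lie at chr1:133921402-133921651 and those of Optc at chr1:133908000-133908249, both on the minus strand and at starts that fall inside the annotated span of the gene. The bases shown for Fmod lie at chr1:134037004-134037253 on the plus strand and those of Ogn at chr13:49607765-49608014 on the plus strand.
Prelp: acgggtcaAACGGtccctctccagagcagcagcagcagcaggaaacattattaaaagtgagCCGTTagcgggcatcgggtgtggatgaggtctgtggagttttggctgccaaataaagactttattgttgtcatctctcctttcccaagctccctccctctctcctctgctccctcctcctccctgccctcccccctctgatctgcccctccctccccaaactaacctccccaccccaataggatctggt
Optc: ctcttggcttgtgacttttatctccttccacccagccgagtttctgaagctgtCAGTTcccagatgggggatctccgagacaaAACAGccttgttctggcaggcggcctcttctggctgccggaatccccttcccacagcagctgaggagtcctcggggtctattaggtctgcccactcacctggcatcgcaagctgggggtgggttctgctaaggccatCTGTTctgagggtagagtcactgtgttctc
Fmod: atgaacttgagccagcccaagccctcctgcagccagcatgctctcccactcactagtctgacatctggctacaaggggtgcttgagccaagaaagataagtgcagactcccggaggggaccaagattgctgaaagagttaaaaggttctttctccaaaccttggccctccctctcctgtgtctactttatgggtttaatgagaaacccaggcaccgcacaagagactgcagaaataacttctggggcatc
Ogn: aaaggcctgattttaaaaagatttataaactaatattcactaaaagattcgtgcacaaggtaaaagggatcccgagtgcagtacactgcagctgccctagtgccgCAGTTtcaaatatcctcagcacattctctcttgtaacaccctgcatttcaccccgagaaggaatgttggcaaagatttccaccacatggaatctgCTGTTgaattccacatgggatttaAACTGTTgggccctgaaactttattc

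Prelp held 2 matches, which begin at bases 9 and 62 and are on opposite strands. Optc held 3 matches, Fmod 0 and Ogn 4, of which 2 overlap. Omd and Aspn, which lie beside Ogn and are not shown, held 2 and 3. Among the 8 members with an upstream sequence in the table, 6 held AACNG, and 74.2% of the 32851 upstream sequences of that length did. Both matches of Prelp read AACGG, a form within AACNG that 1 of the 8 members held and 4772 of all 32851 upstream sequences. A match describes these letters and does not mark a bound site.

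Signals are log2 values as deposited, a gene's level is the mean of its probe sets, and differences are in log2 units, where 1 is a doubling. Both eGFP arrays of each pool were averaged before any comparison. Array medians were 5.61 to 5.74 in the pool set and 5.39 to 5.51 in the suppression set, so nothing was compared across the sets. Myb was higher in MYBtr, MYBQKI5 and MYBQKI6 cells than in eGFP cells, by 2.62, 2.37 and 2.84 (limma over all genes, adjusted p = 2.64e-04, 0.00187 and 3.47e-04). Qk differed by 0.25 with QKItr (adjusted p = 1.00) and by -0.22 with Qk suppression against LacZ suppression (adjusted p = 0.999), so the gene mean of Qk did not bear out the labels of these 2 groups. Signals of different probe sets do not order RNA amounts between genes, and in bulk RNA more cells of a kind cannot be told apart from more RNA per cell.

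Prelp stood 1.79 to 4.07 log2 units higher in cells with any of the 3 MYB constructs than in eGFP cells of the same pool. In pools 1, 2 and 3 its level was 11.05, 10.53 and 10.32 with MYBtr, 9.86, 9.49 and 9.98 with MYBQKI5, and 10.36, 9.78 and 9.80 with MYBQKI6. QKItr cells had 7.01, 7.37 and 8.17 in the same pools. The paired eGFP arrays read 6.89 and 7.07 in pool 1, 7.63 and 7.77 in pool 2, and 7.98 and 7.97 in pool 3. Every array with a MYB construct was above every array with QKItr or eGFP, and the QKItr and eGFP ranges overlapped. The 2 eGFP arrays of a pool differed by 0.0051 to 0.18, less than the pools differed from each other.

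Prelp averaged 10.64 ± 0.37 in MYBtr, 9.78 ± 0.25 in MYBQKI5, 9.98 ± 0.33 in MYBQKI6, 7.52 ± 0.59 in QKItr and 7.55 ± 0.51 in eGFP cells (SD, n = 3 pools each). The level was thus 8.47-fold higher with MYBtr, 4.67-fold with MYBQKI5 and 5.38-fold with MYBQKI6 than with eGFP, or 3.08, 2.22 and 2.43 in log2 units with an SE of 0.31. These contrasts chose the family, so the values are a description. No p-value of Prelp is given for them, and its calls below are not read as a test. In order of mean level, MYBtr came first, with a range that overlapped that of MYBQKI6 and not that of MYBQKI5. MYBQKI6 and MYBQKI5 overlapped each other, and QKItr and eGFP overlapped at the low end.

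**Figure D1:**
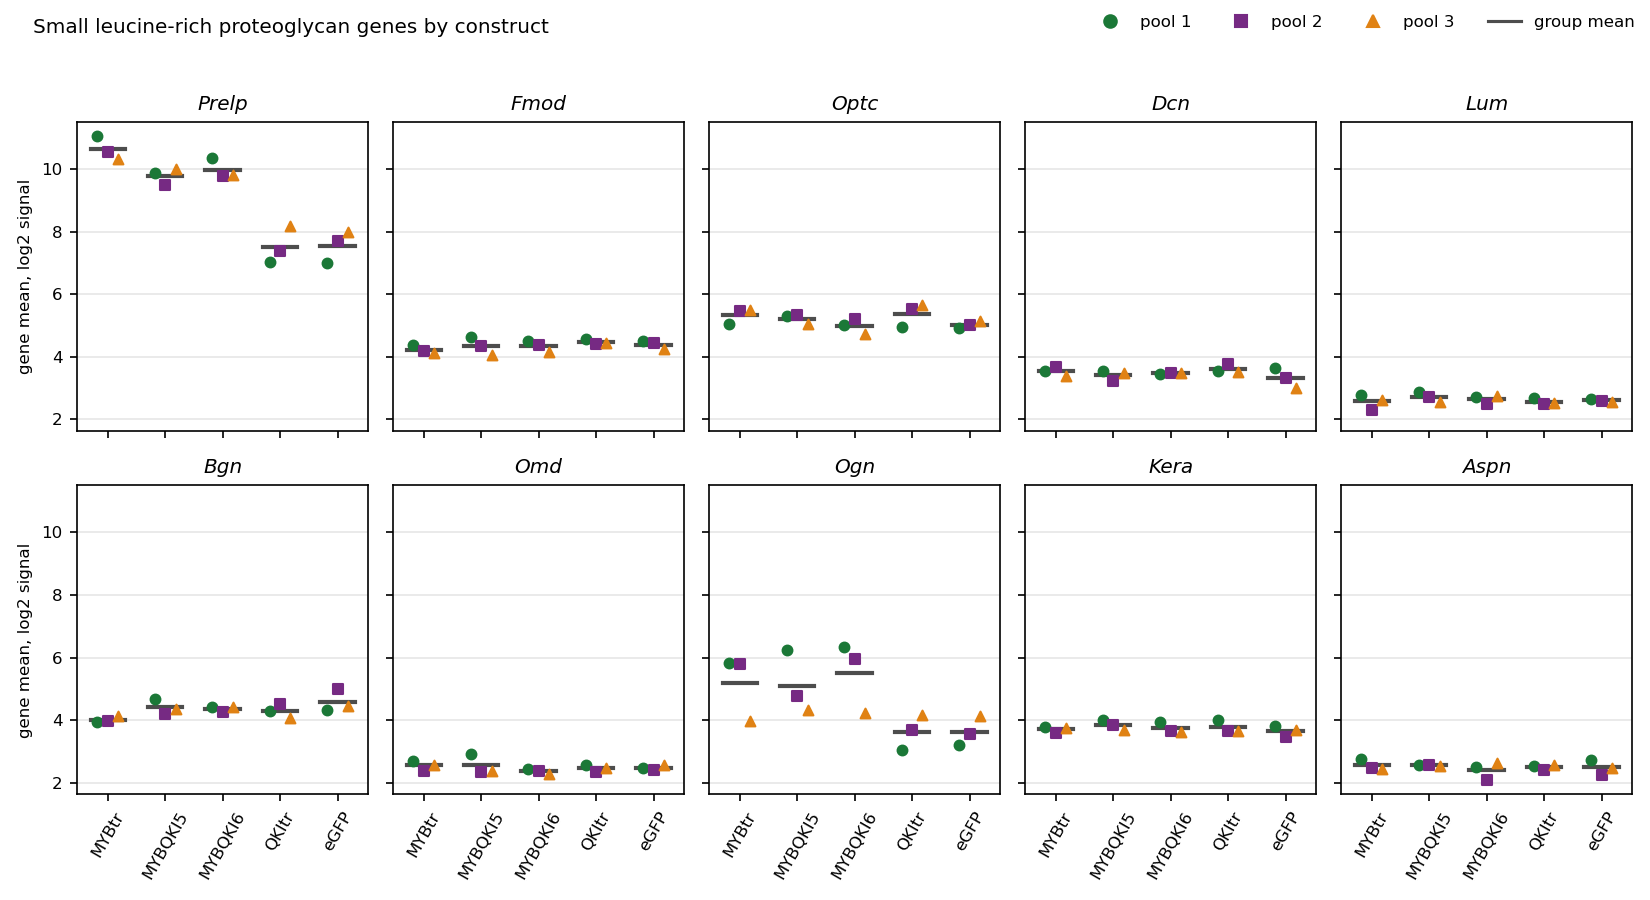
Gene means (log2 signal, y axis) of the 10 members in each construct group (x axis); points are pools and lines are group means over 3 pools. Prelp is separated between MYB constructs and the other groups in every pool, Ogn in pools 1 and 2, and the other 8 genes lie in narrow bands.

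The gap was widest in pool 1, where eGFP cells had the lowest Prelp level. With MYBtr the difference from eGFP of the same pool was 4.07, 2.83 and 2.35 in pools 1, 2 and 3. It was 2.87, 1.79 and 2.01 with MYBQKI5, 3.38, 2.08 and 1.83 with MYBQKI6, and 0.03, -0.33 and 0.20 with QKItr. All 9 differences with a MYB construct were positive, and those with QKItr had both signs.

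All 6 probe sets of Prelp shared the pattern. Each was higher than eGFP in each pool with each MYB construct, by 2.31 to 3.74 as group means with MYBtr, 1.49 to 2.64 with MYBQKI5 and 1.48 to 3.05 with MYBQKI6. With QKItr the probe sets differed from eGFP by -0.17 to 0.15, and none of the 6 passed the test. The smallest differences were at probe set 17227082, with 9.54 ± 0.54 in MYBtr and 7.23 ± 0.13 in eGFP cells (SD, n = 3 each), and the largest at 17227078, with 10.01 ± 0.32 in MYBtr and 6.27 ± 0.82 in eGFP cells. Probe set 17217372, whose array ID lies beside those of Fmod and far from the other 5, was also higher, by 3.03, 2.19 and 2.54 with MYBtr, MYBQKI5 and MYBQKI6. The 8 probe sets of Fmod differed from eGFP by -0.62 to 0.20 with MYBtr, and the 11 of Optc by -0.23 to 1.06.

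**Figure D2:**
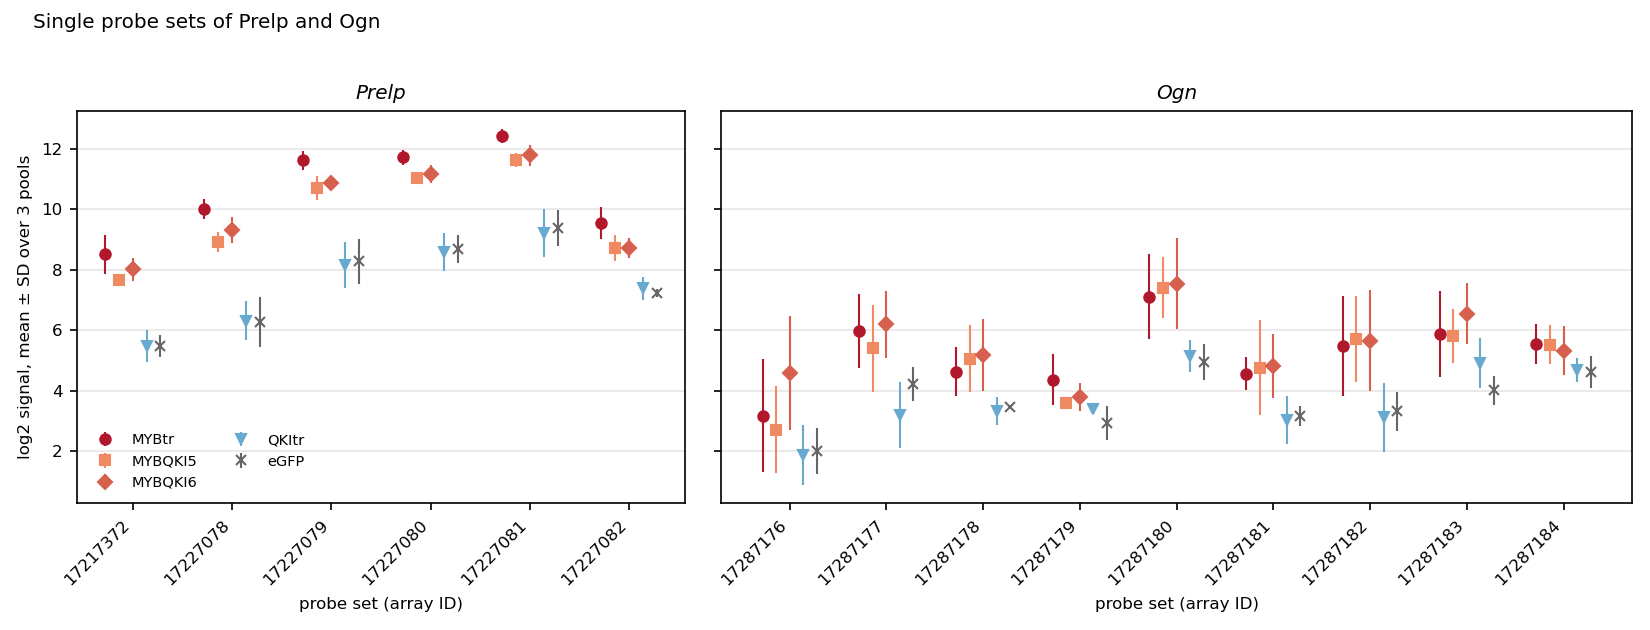
Single probe sets of Prelp and Ogn (x axis, array ID) with their log2 signal (y axis) as mean and SD over 3 pools for each construct. For all 6 probe sets of Prelp the 3 MYB constructs sit above QKItr and eGFP; for Ogn the means sit above but the SD bars are wide.

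Over all 23152 genes 1.37% had an adjusted p under 0.05 with MYBtr, 0.199% with MYBQKI5 and 0.765% with MYBQKI6 against eGFP. The count among the 10 members was 1 in each contrast, the gene that the choice of the family rested on (0 with MYBQKI5 without the MYBQKI5 array of pool 3). It follows from that choice, is no test, and nothing is read from it. The median difference over the members was 0.067, 0.10 and 0.0018 with MYBtr, MYBQKI5 and MYBQKI6, beside -0.014, -0.0066 and -0.0049 over all genes.

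The neighbours of Prelp on chromosome 1 did not share its difference. Optc, which encodes opticin of the eye's vitreous, read 5.04, 5.45 and 5.50 with MYBtr against 4.92, 5.01 and 5.14 with eGFP in pools 1, 2 and 3. Its mean differed from eGFP by 0.31, 0.20 and -0.04 with MYBtr, MYBQKI5 and MYBQKI6, and by 0.35 with QKItr. Fmod, which encodes fibromodulin, a collagen-binding proteoglycan of tendon and cartilage, read 4.38, 4.18 and 4.13 with MYBtr against 4.50, 4.43 and 4.24 with eGFP. It differed by -0.16, -0.04 and -0.05 with MYBtr, MYBQKI5 and MYBQKI6, and by 0.08 with QKItr. With each of the 4 constructs the ranges of both genes overlapped those of eGFP.

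Further out, 5 protein-coding genes were taken on each side of the block, and 7 of the 10 had a value. With MYBtr the next gene beyond Optc, Atp2b4, which encodes a calcium pump, differed by 0.36, Lax1 by -0.01 and Snrpe by 0.03. On the Fmod side Btg2, an antiproliferative gene, differed by -0.77 (adjusted p = 0.056, or 0.013 when the pool was a block), Chit1 by -0.17, Chil1 by -0.19 and Mybph by -0.42. None of the 7 passed the test against eGFP with MYBtr, MYBQKI5 or MYBQKI6 in the fit without the block.

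**Figure D3:**
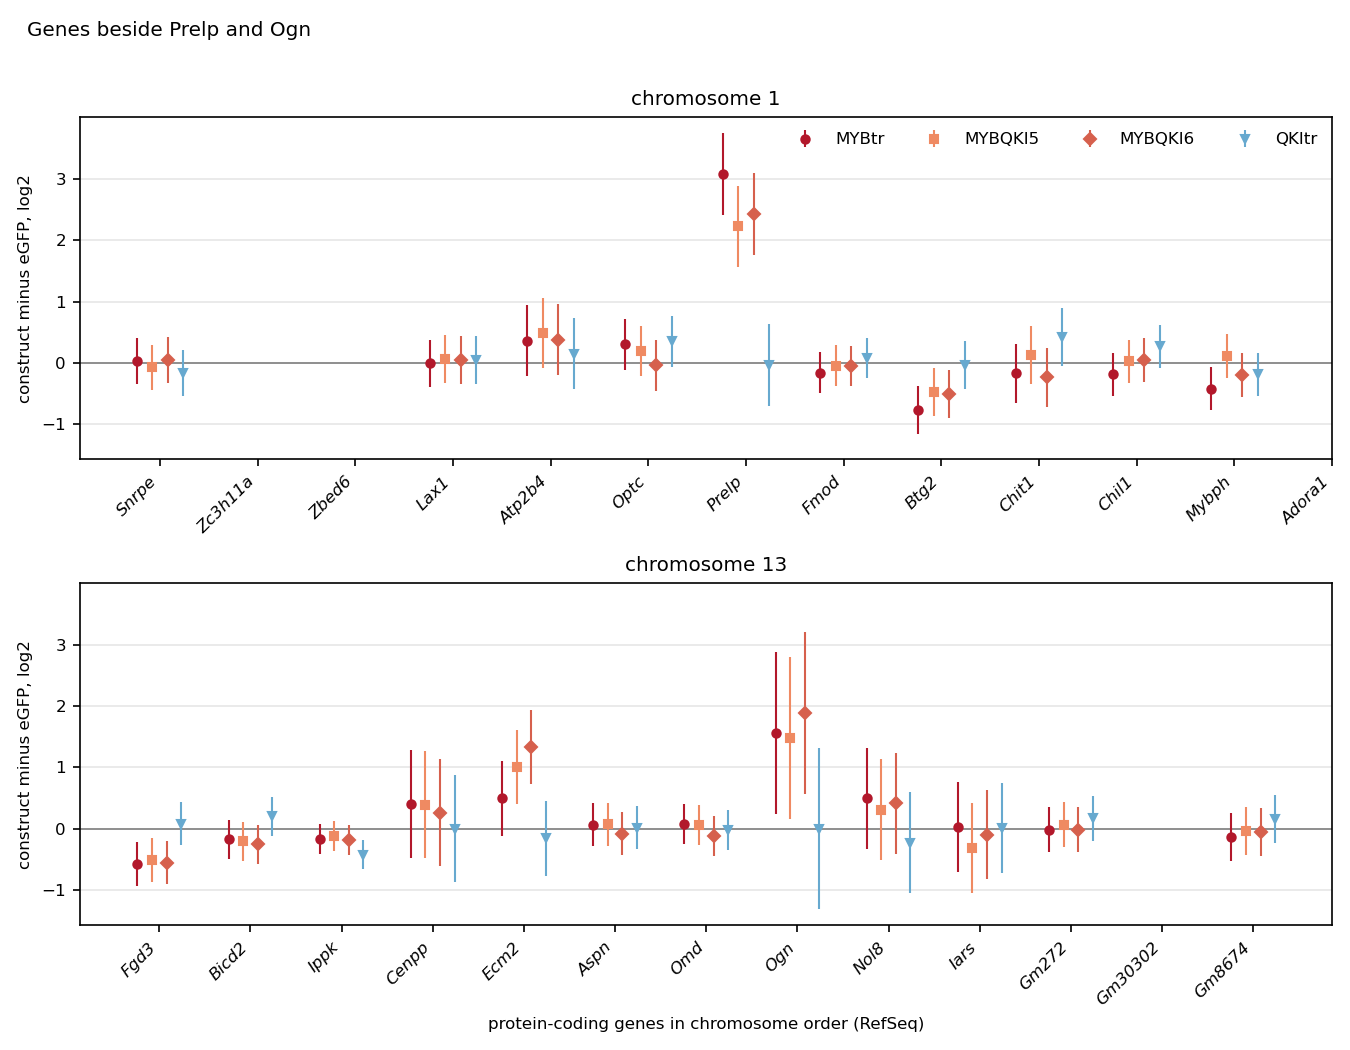
Difference from eGFP (log2, y axis) of protein-coding genes in chromosome order (x axis) around Prelp and around Ogn, with 95% confidence intervals, for the 4 constructs; genes without a point had no probe set of their own. With the 3 MYB constructs Prelp has the largest difference among the genes shown on chromosome 1 and Ogn among those on chromosome 13; with QKItr neither does.

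Ogn, which encodes osteoglycin, also called mimecan, was higher with the MYB constructs in pools 1 and 2, while in pool 3 it differed from eGFP by -0.15 to 0.19. With MYBtr it read 5.81, 5.78 and 3.96 in pools 1, 2 and 3, with MYBQKI5 6.25, 4.76 and 4.31, and with MYBQKI6 6.35, 5.94 and 4.24. It read 3.04, 3.69 and 4.16 with QKItr, and 3.20, 3.56 and 4.12 with eGFP. In pool 3 all 5 groups lay between 3.96 and 4.31, while in pool 1 the MYB constructs were 2.61 to 3.15 above eGFP.

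Averaged over pools, the difference of Ogn from eGFP was 1.56, 1.48 and 1.89 with MYBtr, MYBQKI5 and MYBQKI6 (SE 0.62). Within pools 1, 2 and 3 the differences were 2.61, 2.23 and -0.15 with MYBtr, 3.05, 1.20 and 0.19 with MYBQKI5, and 3.15, 2.38 and 0.12 with MYBQKI6. Of its 9 probe sets, 9, 9 and 4 were above eGFP in pools 1, 2 and 3 with MYBtr, 9, 8 and 6 with MYBQKI5, and 9, 9 and 5 with MYBQKI6. With QKItr the counts were 4, 5 and 5. The contrasts are those that chose the family, so Ogn is described with no test. Its range overlapped that of eGFP with MYBtr and did not with MYBQKI5 or MYBQKI6.

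On chromosome 13 the other 2 family members beside Ogn stayed near their eGFP level. Omd, which encodes osteomodulin of bone, differed by 0.07, 0.07 and -0.12 with MYBtr, MYBQKI5 and MYBQKI6, and Aspn, which encodes asporin, a collagen-binding protein that restrains TGF-beta, by 0.06, 0.08 and -0.08. Ecm2, a leucine-rich matrix protein encoded on the far side of Aspn and no member here, was 6.06 ± 0.57 with MYBQKI6 against 4.73 ± 0.04 with eGFP (SD, n = 3 each). Its rise of 1.33 passed the test over all genes (limma, SE 0.28, adjusted p = 0.0467, or 0.0034 when the pool was a block). The rise was 1.82, 1.50 and 0.67 in pools 1, 2 and 3. In the fit without the block, the call was lost without any 1 of 5 of the 6 columns compared (eGFP of pool 1, 2 or 3, MYBQKI6 of pool 1 or 2). The differences were then 1.08 to 1.35 and the adjusted p 0.139 to 0.246.

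Ecm2 differed from eGFP by 1.01 with MYBQKI5 (adjusted p = 0.233, or 0.024 when the pool was a block) and by 0.49 with MYBtr (adjusted p = 0.696). The genes around Aspn, Omd and Ogn were compared after the values of Ogn were seen, and since Cenpp spans these genes and Ecm2, signal from overlapping transcripts cannot be told apart. Nol8, next to Ogn, differed by 0.50, 0.31 and 0.42 with MYBtr, MYBQKI5 and MYBQKI6, and Cenpp by 0.40, 0.39 and 0.26. Fgd3, at the outer edge, differed by -0.57, -0.51 and -0.55. When the pool was a block, Nol8 and Fgd3 passed with MYBtr (adjusted p = 0.035 and 0.033), and neither did without it.

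**Figure D4:**
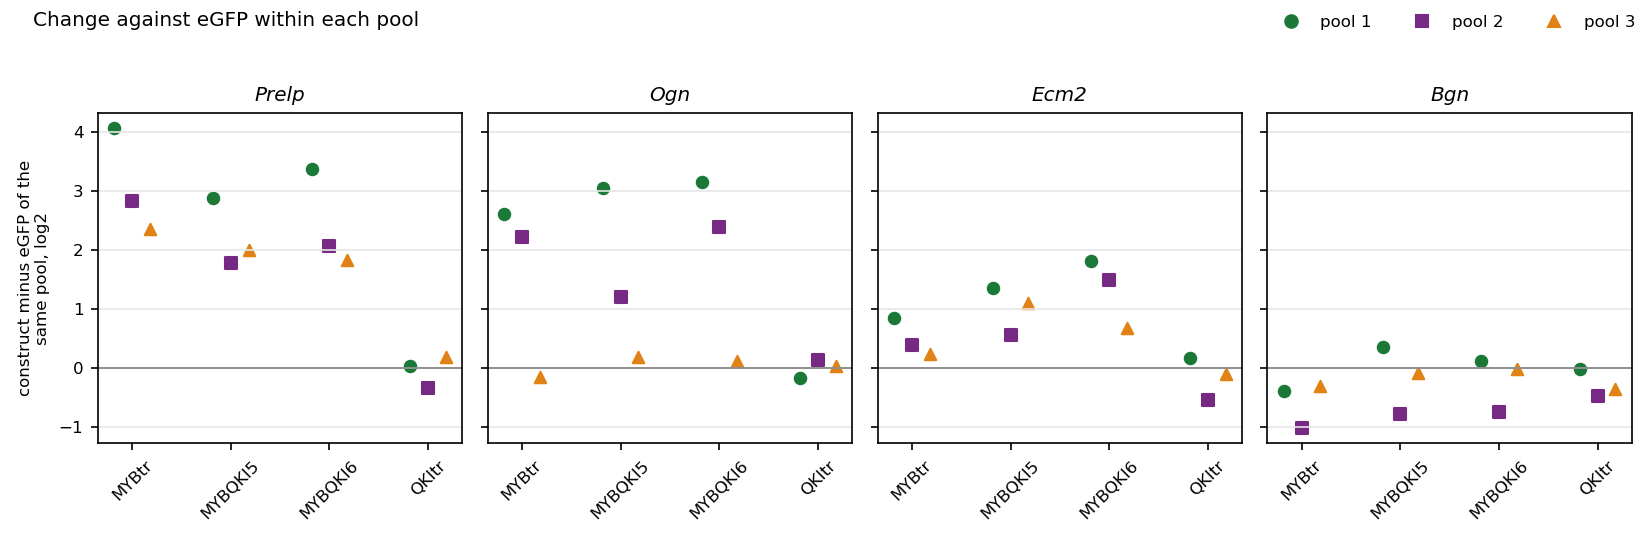
Difference between each construct and eGFP of the same pool (log2, y axis) for Prelp, Ogn, Ecm2 and Bgn, with the constructs on the x axis and a point per pool. Prelp is above 0 in all pools with the MYB constructs, Ogn lies near 0 in pool 3, and Bgn is below 0 in all pools with MYBtr.

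Bgn, which encodes biglycan, a close relative of decorin that binds collagen and can signal through Toll-like receptors, averaged lower with MYBtr than with eGFP. It read 3.93, 3.97 and 4.15 with MYBtr against 4.32, 4.99 and 4.45 with eGFP in pools 1, 2 and 3, where the eGFP values are means of 2 arrays. These ranges did not overlap, but the single eGFP arrays ran from 4.03 to 5.23 and overlapped MYBtr, and the 2 eGFP arrays of pool 1 differed by 0.57. Its mean was 4.01 ± 0.12 with MYBtr against 4.58 ± 0.36 with eGFP (SD, n = 3 each), a difference of -0.57 that is given with no test and is -0.37 without eGFP of pool 2. As means over the 3 pools, all 14 of its probe sets were lower with MYBtr. In pools 1, 2 and 3 taken singly, 4, 1 and 5 of the 14 were above eGFP. The mean of Bgn differed from eGFP by -0.17 with MYBQKI5, -0.21 with MYBQKI6 and -0.28 with QKItr, and these groups overlapped eGFP.

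The other connective tissue members differed little. Dcn, which encodes decorin, the founding member that binds collagen and TGF-beta, differed from eGFP by 0.20, 0.09 and 0.14 with MYBtr, MYBQKI5 and MYBQKI6, and by 0.28 with QKItr. Lum, the corneal keratan sulfate proteoglycan lumican, differed by -0.03, 0.12, 0.04 and -0.04 in the same order. Kera, which encodes keratocan of the cornea, differed by 0.05, 0.19, 0.08 and 0.12. Over all groups of the pool set, single levels ran from 3.01 to 3.78 for Dcn, 2.32 to 2.89 for Lum, and 3.47 to 4.01 for Kera. On the array these are low signals, and Dcn, Lum, Kera, Omd and Aspn fell in the lowest 25% of gene means in the pool set.

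With QKItr, the construct named for QKI alone, no member passed the test. The comparison was with eGFP, where 0% of the 23152 genes passed and 362 had an unadjusted p under 0.05, none of them a member. Prelp differed by -0.03 (95% CI -0.70 to 0.63, limma adjusted p = 1.00) and Ogn by 0.00 (95% CI -1.32 to 1.32). Optc was higher in all 3 pools, by 0.35 (95% CI -0.06 to 0.77, adjusted p = 1.00), and Bgn lower in all 3, by -0.28 (95% CI -0.67 to 0.11, adjusted p = 1.00). Of the 79 probe sets taken singly, 0 passed, beside 0.00222% of all 269751.

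Among the MYB constructs, Prelp was highest with MYBtr, and no member passed a test between them. Against MYBtr, Prelp differed with MYBQKI5 by -0.86 (95% CI -1.52 to -0.19, limma adjusted p = 1.00), lower in 3 of 3 pools with ranges that did not overlap. It differed with MYBQKI6 by -0.66 (95% CI -1.32 to 0.01, adjusted p = 1.00), also lower in 3 of 3 pools, with overlapping ranges. MYBQKI6 and MYBQKI5 differed by 0.20 (95% CI -0.46 to 0.87, adjusted p = 1.00). In each of the 3 pairs 0% of genes passed, and 849, 604 and 404 genes had an unadjusted p under 0.05 for MYBQKI5 against MYBtr, MYBQKI6 against MYBtr and MYBQKI6 against MYBQKI5. The members among them were 2, 0 and 0, the 2 being Prelp and Bgn.

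All 6 probe sets of Prelp were lower with MYBQKI5 than with MYBtr, by differences of -1.10 to -0.68, and with MYBQKI6, by -0.83 to -0.49, and none of them passed. Of single probe sets 0.000371% passed between MYBQKI5 and MYBtr, 0% between MYBQKI6 and MYBtr and 0% between MYBQKI6 and MYBQKI5, and no probe set of a member was among them. Bgn was higher with MYBQKI5 than with MYBtr by 0.40 (95% CI 0.01 to 0.78, adjusted p = 1.00), and with MYBQKI6 by 0.36 (95% CI -0.03 to 0.75, adjusted p = 1.00). The ranges did not overlap in either pair. Ogn differed by -0.08 (95% CI -1.40 to 1.24) between MYBQKI5 and MYBtr and by 0.32 (95% CI -0.99 to 1.64) between MYBQKI6 and MYBtr, intervals that leave room for a level more than 2-fold higher.

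No member passed the test between Qk and LacZ suppression in cells with MYBQKI6. Prelp read 8.96, 9.50, 8.95, 9.22 and 9.24 with Qk suppression against 9.62, 9.17 and 9.24 with LacZ suppression. Of its 6 probe sets, 5 were lower with Qk suppression and 1, 17217372, was higher, with differences of -0.44 to 0.23. The gene mean of Prelp differed by -0.17 (SE 0.18, 95% CI -0.56 to 0.22, limma adjusted p = 0.999), and 0 of 5 Qk samples lay above the LacZ sample that shares their number. The 5 Qk samples share 3 LacZ samples as partners, so such counts, here and below, are not of independent pairs. The shared number is the last in the label. Qk samples carry a first number too, which the labels do not explain and which was not used. In this comparison 0.00432% of genes passed, 1 of 23152, and 0 of the 10 members, and 946 genes had an unadjusted p under 0.05, 1 of them a member. No single probe set passed, of a member or in the table as a whole (0%).

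That member was Omd, which read 2.47, 2.20, 2.57, 2.22 and 2.36 with Qk suppression against 2.45, 2.84 and 2.93 with LacZ suppression. It differed by -0.38 (95% CI -0.74 to -0.02, adjusted p = 0.999), was lower in 5 of 5 samples than its LacZ partner, and the ranges overlapped at a low signal. Bgn was higher in 5 of 5 samples, by 0.26 (95% CI -0.24 to 0.77, adjusted p = 0.999). Ogn read 2.83, 3.12, 3.22, 2.41 and 2.67 with Qk suppression against 2.82, 2.62 and 3.18 with LacZ suppression, a difference of -0.02 (95% CI -0.48 to 0.44). These are low signals too, at percentile 10.2 of the gene means with Qk suppression and 9.63 with LacZ suppression, so this difference says little. The remaining differences were -0.15 for Fmod, -0.07 for Optc, -0.31 for Dcn, -0.20 for Lum, 0.06 for Kera and -0.28 for Aspn, none past the test. The median over the 10 members was -0.16, beside 0.027 over all genes.

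**Figure D5:**
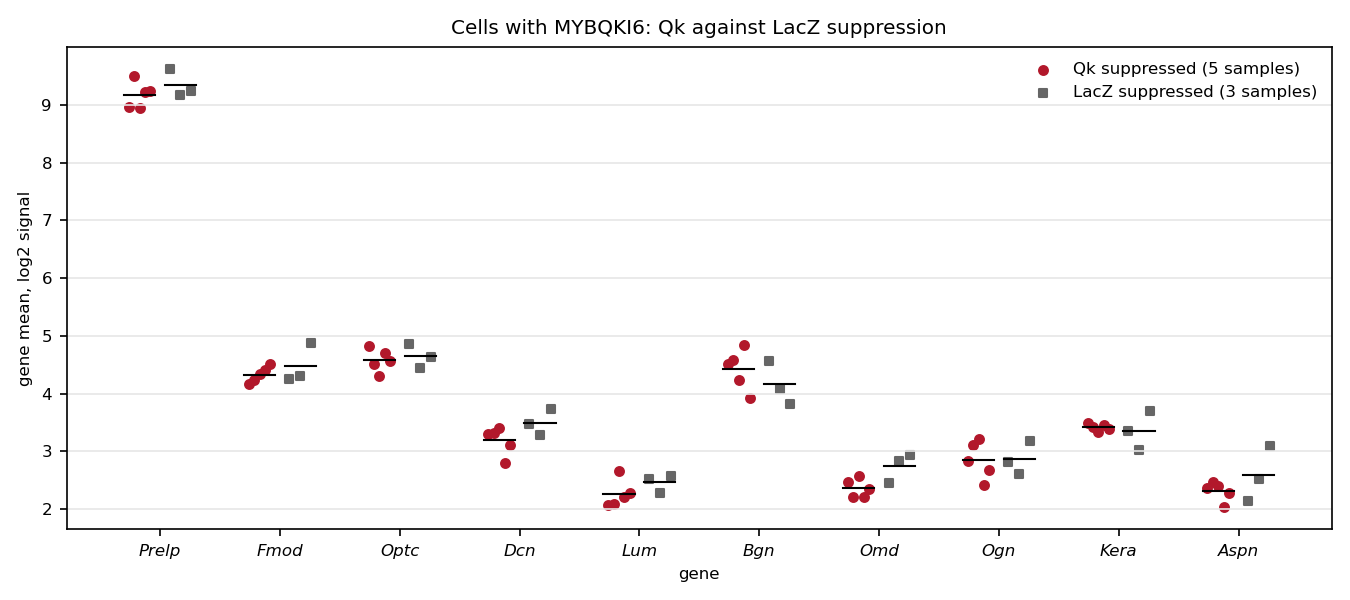
Gene means (log2 signal, y axis) of the 10 members (x axis) in cells with MYBQKI6, with Qk suppressed in 5 samples (left of each pair) or LacZ suppressed in 3 (right); lines are means. The groups overlap for every member, Prelp lying between 8.95 and 9.62.

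The enzymes that build the sugar chains of these proteins gave 1 rise and 1 fall among 26 measured genes with MYBtr. Without the block 1.37%, 0.199% and 0.765% of all genes passed with MYBtr, MYBQKI5 and MYBQKI6 against eGFP. Chsy1, a chondroitin sulfate synthase, was 9.34 ± 0.33 with MYBtr against 8.38 ± 0.28 with eGFP, a rise of 0.96 (limma adjusted p = 0.0407, SD over n = 3 each). Xylt1, the xylosyltransferase that attaches the first sugar of such chains, was 7.42 ± 1.03 with MYBtr against 9.57 ± 0.24 with eGFP, a difference of -2.16 (adjusted p = 0.0462). With MYBQKI5 and MYBQKI6 none of the 26 passed, where Xylt1 differed by -1.62 and -1.81 (adjusted p = 0.299 and 0.140, or 0.013 and 0.0044 when the pool was a block). Chst15, a sulfotransferase of chondroitin chains, differed by 1.74 with MYBQKI6 (adjusted p = 0.066, and 0.0064 with the block). With the block, under which 5.97%, 2.63% and 4.39% of all genes passed with MYBtr, MYBQKI5 and MYBQKI6, 2 of the 26 rose and 1 fell with MYBtr, 0 rose and 1 fell with MYBQKI5, and 2 rose and 2 fell with MYBQKI6. Leaving out any 1 of 5 of the 6 columns compared (eGFP of pool 1, 2 or 3, MYBtr of pool 1 or 2) ended the MYBtr calls, with adjusted p of 0.111 to 0.224 for Xylt1 (differences of -2.30 to -1.73) and 0.0518 to 0.185 for Chsy1 (differences of 0.78 to 1.11).

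Of 16 fibrillar collagens and matrix partners, Fn1, which encodes fibronectin, was the 1 gene that passed with MYBtr, beside 1.37% of all genes. It was 10.54 ± 0.43 with MYBtr against 7.49 ± 1.04 with eGFP (SD, n = 3 each), a rise of 3.05 (limma adjusted p = 0.0248), and the call was lost without the same 5 columns (differences of 2.45 to 3.37, adjusted p of 0.0514 to 0.141). Fn1 differed by 2.32 with MYBQKI5 and 2.50 with MYBQKI6 (adjusted p = 0.179 and 0.087, or 0.0057 and 0.0021 when the pool was a block). The fibril-forming collagens that small leucine-rich proteoglycans bind did not pass, with Col1a1 at -0.12 and Col3a1 at -0.07 with MYBtr. The median of the list was -0.08 with MYBtr.

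Of 13 measured TGF-beta and BMP genes, Ltbp1, which holds latent TGF-beta in the matrix, rose with MYBQKI6 to 8.18 ± 0.40 against 6.50 ± 0.33 with eGFP (SD, n = 3 each). The difference was 1.68 (limma adjusted p = 0.0074), and 1.45 without the MYBQKI6 array of pool 2 (adjusted p = 0.0573). For the counts without the block in this paragraph, 1.37%, 0.199% and 0.765% of all genes passed with MYBtr, MYBQKI5 and MYBQKI6. Ltbp1 differed by 0.86 with MYBtr and 1.01 with MYBQKI5 (adjusted p = 0.143 and 0.147, and 0.036 and 0.027 with the block). With the block 3, 1 and 2 of the 13 rose with MYBtr, MYBQKI5 and MYBQKI6, and 1 (Tgfb3, -0.63) fell with MYBQKI6, beside 5.97%, 2.63% and 4.39% of all genes past the test. Of 8 proteases that cut proteoglycans 0 passed, and the smallest p belonged to Mmp2, at -0.75, -0.86 and -0.75 with MYBtr, MYBQKI5 and MYBQKI6 (adjusted p = 0.217, 0.243 and 0.265, and 0.0079, 0.0079 and 0.010 with the block). Of 8 other leucine-rich proteoglycans Ecm2 with MYBQKI6 was the 1 gene that passed, and with the block 0 rose and 1 fell with MYBtr (Chadl, -0.57, adjusted p = 0.022) and 1 rose and 1 fell with MYBQKI5 (Ecm2 and Podn, at 1.01 and -0.57). With QKItr, between MYB constructs and with Qk suppression, none of these lists had a gene past the test.

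None of the markers of the cells that usually make these proteins passed a test. Over all genes 1.37%, 0.199% and 0.765% passed with MYBtr, MYBQKI5 and MYBQKI6 against eGFP, and at most 0.00432% in the other comparisons. At such shares most lists this short would hold none, so nothing is read from these counts. Single fibroblast and meningeal markers differed by -0.43 to 0.73 with MYBtr. Over the pool set the mean of 12 fibroblast and meningeal markers was 4.80 to 4.96 with MYBtr, 4.91 to 5.04 with MYBQKI5, 4.90 to 4.93 with MYBQKI6, 4.84 to 5.03 with QKItr and 4.91 to 4.99 with eGFP, and 0 of the 12 passed in any comparison. The means of 8 pericyte, 7 endothelial and 6 microglial markers likewise had 0 genes past the test and overlapped between each MYB construct and eGFP. The 12 measured neural stem cell markers averaged 8.03 to 8.46 with MYBtr and 8.35 to 8.45 with eGFP, and 0 passed. Nes, a marker of neural stem cells, differed by -1.04 with MYBtr (adjusted p = 0.061, or 0.0032 when the pool was a block). With the block, under which 5.97% of all genes passed with MYBtr, 3 of the 12 fell (Nes, Hes1 and Sox9) and 1, Vim, rose. The part of these differences in the level of Prelp was not tested.

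The genes whose levels ran most closely with Prelp over the 15 columns of the pool set were Fras1 (Pearson r = 0.980), Wnk1, Anks1 and Itm2a (each 0.979), Uaca (0.978), Frmd4b (0.974), Prune2 and Tnfaip6 (each 0.970), Zmynd10 (0.966) and Dbn1 (0.965). All 10 were named by the highest r, and 9 of the 15 columns carried a MYB construct. Fras1, which encodes a basement membrane protein, differed from eGFP by 2.51, 2.16 and 2.04 with MYBtr, MYBQKI5 and MYBQKI6, and Tnfaip6, a hyaluronan-binding protein, by 2.28, 1.78 and 2.27. With MYBtr the differences of the 10 genes ran from 0.74 for Wnk1 to 3.52 for Zmynd10 and 4.06 for Prune2. Over the 8 suppression arrays the same genes had r with Prelp of 0.68 for Fras1, 0.80 for Prune2 and -0.79 for Tnfaip6, and the others lay between these last values.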

How the data were processed

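The deposited values are log2 signals, judged so because they run from 0.22 to 14.6. How they were normalized is not given in the sources used here. RNA was extracted with a Qiagen kit and labelled with biotin, per the labels' protocols. Probe sets were named through the platform annotation, and 233753 named 1 gene. The probe sets of a gene were averaged. Group means were fitted with limma 3.58.1 (R 4.3.3, data.table, version 1.17.8), 15 columns in the pool set and 8 arrays in the suppression set, and Benjamini-Hochberg adjusted over 23152 genes in each of 8 comparisons, with a threshold of 0.05 and no filter on dim signal. The number of arrays limits the precision.

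The members and gene lists were chosen with earlier results of these data known. Named are all members, up to 4 list genes past the threshold or the 1 with the smallest p, and the 10 genes most like Prelp. Some list genes are not reported here. Samples sharing a number were alike once group means were removed: 30 pool pairs correlated at 0.31 to 0.72 and 5 suppression pairs at 0.22 to 0.57. Each pair was above 0.1, so the number was used as a block in an alternative fit. Unless the block is named, SEs, intervals and adjusted p-values come from the fit without it, which leaves this pairing out. More genes passed with the block in the MYB contrasts with eGFP, so a gene that did not pass without it may still differ.

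On simulated data with 200 of 23152 genes changed, MYBtr against eGFP recovered 72.8%, 95.5% and 98.5% of changes of 1, 2 and 3 log2 units, and Qk against LacZ suppression 57%, 94.9% and 99.7%. The simulated noise was independent between samples, with no likeness of those that share a number. In the data 1 gene passed with Qk against LacZ suppression. With so few genes passing the adjusted threshold is stricter than in the simulation, so these rates do not carry over to that comparison. Plots used Python 3.11.15 with matplotlib 3.10.9.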

Additional observations from a re-analysis of the deposited data

How the results depend on the processing

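In the comparisons that did not choose the family, 0 members were called under every alternative run, the replicate block included. At most 3 genes of all those tested were called in any such run, so this count says little about the members. The count of 1 in the MYB contrasts with eGFP follows from the choice of the family and is no measure of stability (it was 0 with MYBQKI5 without MYBQKI5 replicate 3). With the replicate block all genes called came to 1383, 609 and 1017 with MYBtr, MYBQKI5 and MYBQKI6 against eGFP, beside 317, 46 and 177 without it. Leaving out single replicates, Prelp differed from eGFP by 2.80 to 3.29 with MYBtr, 1.94 to 2.43 with MYBQKI5, 2.14 to 2.64 with MYBQKI6 and -0.36 to 0.22 with QKItr. It differed by -1.01 to -0.65 and -0.84 to -0.45 with MYBQKI5 and MYBQKI6 against MYBtr, 0.01 to 0.31 between those 2, and -0.26 to -0.03 with Qk against LacZ suppression. Calls over all genes with MYBtr, MYBQKI5 and MYBQKI6 were 835, 320 and 584 with eGFP arrays not averaged, 365, 64 and 195 above percentile 25, 182, 26 and 93 with the median of probe sets, 96, 18 and 41 with the highest probe set, 37, 34 and 27 with only the groups compared, and 52 to 456, 11 to 32 and 23 to 244 without 1 replicate. They were 341, 70 and 204 with quantile normalization, and 322, 56 and 189 with centred arrays. Outside the MYB contrasts with eGFP, differences changed sign in 5 of 70 alternative values for Prelp, all with QKItr, and in 75 of 604 for the other members, with no call on either side. In the MYB contrasts with eGFP, given with no test, the other members changed sign in 36 of 363 values and moved by over 1 SD in 33. Of 14 alternatives, the list calls held in 6 for Xylt1, 7 for Chsy1, 8 for Fn1, 4 for Ecm2 and 12 for Ltbp1. Above percentile 25 of the gene means lay 5 members in the pool set and 4 in the suppression set, so dim signal limits the rest.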

Other observations

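The genes whose levels ran most closely with Ogn over the 15 columns of the pool set, listed after its values were seen, were Gli3 (Pearson r = 0.928), Cpsf6 (0.915), Runx1t1 (0.913), Frat2 (0.905) and Pam (0.903). Gli3, a transcription factor of Hedgehog signalling, differed from eGFP by 1.71 with MYBtr, 1.46 with MYBQKI5 and 1.74 with MYBQKI6. Over the 8 suppression arrays its r with Ogn was 0.40.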
